A study of Bos taurus with 106 samples.

Results

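The transcripts of 7 enzymes of sugar breakdown were followed in the liver of dairy cows around calving: HK1, PFKP, ALDOA, TPI1, PGK1 and PKM of glycolysis, and PGLS of the pentose phosphate pathway. The members were chosen with earlier results of these data known and were found by gene symbol in the platform's annotation. Of the 8208 cDNA elements on the array, 10 carried 1 of these 7 symbols. HK1, ALDOA and PGLS had 2 elements each, named first and second here in the order of their spots. All 10 elements had a value in all 53 liver samples and passed the filter on missing values, as did 8061 elements in all.

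The study compared 2 planes of nutrition before calving in 8 Holstein cows. In the dry period, which lasted 65 days, every cow ate a diet with 1.60 Mcal of energy per kg. Of the 8 cows, 4 were restricted to near 80% of their requirement by the NRC standard, while the others were fed ad libitum and reached near 120% of it. The sampling days, counted from calving, were -65, -30, -14, 1, 14, 28 and 49, with liver from 4 cows per diet on each day except day -65 (3 ad libitum cows) and day 49 (2 ad libitum cows). The age of the cows and the ration after calving are not given in the sources used here. Each liver RNA was hybridised with a reference pooled from tissues other than liver on 2 slides, with the dyes exchanged between them. Values are log2 ratios of liver over reference, so a value of 0 marks equal signal and a negative value marks more signal in the reference. Such ratios have no counting depth, and the number of cows and the agreement between both slides of a sample limit their precision.

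Glycolysis splits glucose into pyruvate with a net gain of ATP, and the pentose phosphate pathway branches off after the hexokinase step to make NADPH and ribose phosphate. The ruminant liver takes up little glucose and makes it mainly from propionate, lactate and amino acids, so that demand for glucose synthesis rises steeply when milk production begins. HK1, PFKP and PKM are the forms typical of many tissues outside the hepatocyte, which in mammals relies mainly on other forms (glucokinase in many species, PFKL and PKLR). TPI1, PGK1 and PGLS are general enzymes. In bulk liver, fewer cells of a type and less RNA per cell cannot be told apart.

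The labelled tissue was checked first. All 4 tested hepatocyte marker elements (TF, SLC10A1, RBP4 and APOA1) lay above 0, with a median log2 ratio of 4.91. Both slides of a sample agreed unequally across days. The correlation of their ratios over the tested elements averaged 0.734 on day -65, 0.739 on day -30, 0.715 on day 28 and 0.751 on day 49, but 0.56, 0.485 and 0.525 on days -14, 1 and 14. On those 3 days it was lower in ad libitum cows (0.495, 0.378 and 0.449) than in restricted cows (0.625, 0.592 and 0.601). In all, 18 of 53 samples lay under 0.6, and results that were lost without these samples are named as such where they are given.

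Relative to the reference, 9 of the 10 elements lay below 0 on average over all samples. The mean log2 ratio ran from -2.13 for PKM to -0.37 for the first PGLS element, and the second PGLS element alone lay above 0, at 2.53. Ratios of different elements have different reference signals and are not compared as levels. Within an element, the 7 days differed in 9 of 10 elements (F test over days in limma, adjusted p from 2.39e-10 for the second ALDOA element to 0.00836 for PGK1), against 43.4% of all elements tested. The second PGLS element did not pass (F = 1.77, adjusted p = 0.208), though it did without centring (F = 2.73, adjusted p = 0.04) and with liver in Cy3 alone (F = 3.01, adjusted p = 0.0313). Of the 9, the call was lost for the first HK1 element without centring and in Cy5 alone (adjusted p = 0.224 and 0.414), for TPI1 in Cy3 alone (adjusted p = 0.476), and for PGK1 with samples scaled to the same median absolute deviation and without cow 6886 (adjusted p = 0.726 and 0.0615). The plot of values by day shows that most elements changed in a step between days -30 and -14 and returned between days 14 and 28. The days between these steps were also those of lower agreement between slides (means 0.56, 0.485 and 0.525 on days -14, 1 and 14). The part of this agreement in the steps was not tested.

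**Figure D1:**
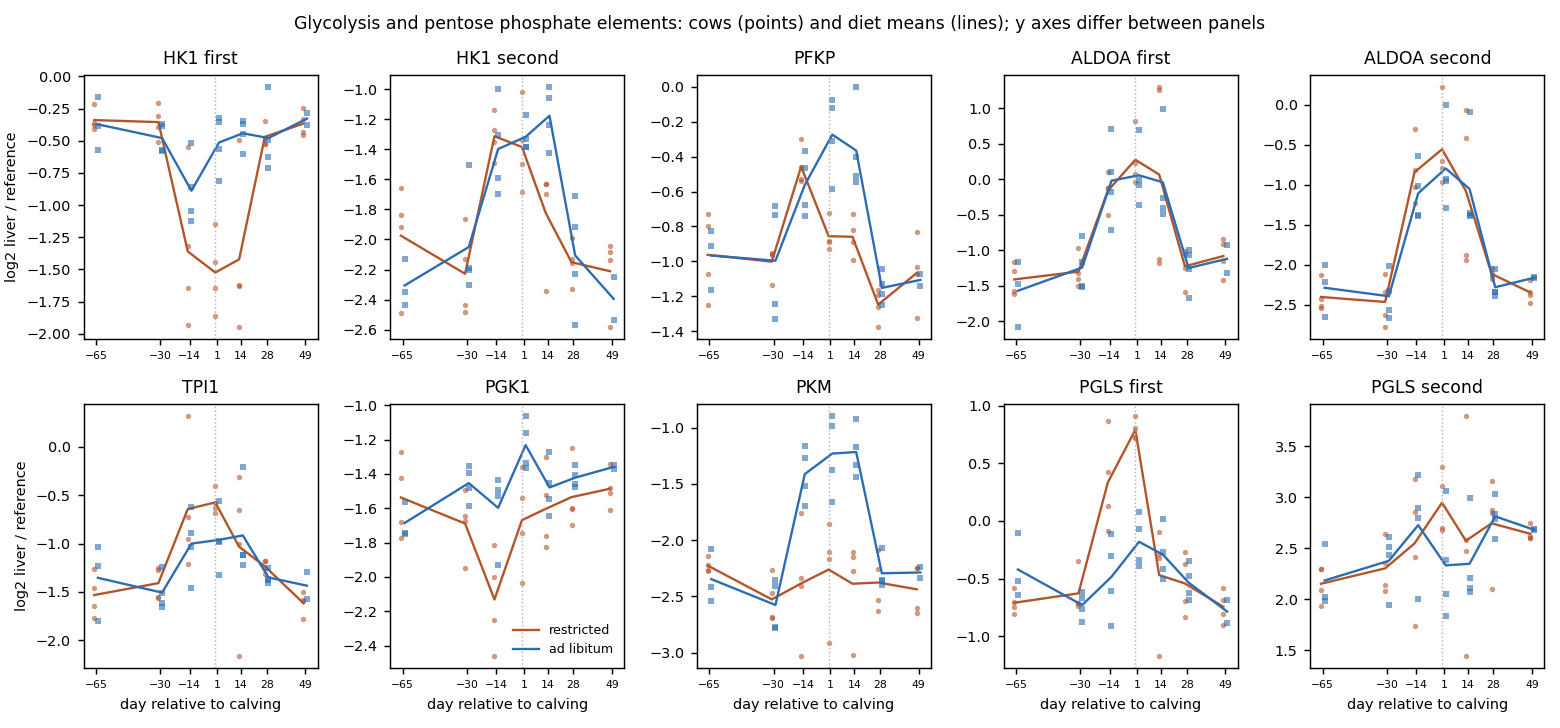
Each panel plots the log2 ratio of liver over reference (y axis, with its own range in each panel) against the day relative to calving (x axis) for 1 element. Points are cows, lines join the diet means, and the dotted line marks calving. Both ALDOA elements rise in both diets on days -14 to 14, PKM rises in the ad libitum cows and stays near its earlier level in the restricted cows, and the first HK1 element dips mainly in the restricted cows.

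The question put to the time series was how transcripts changed between neighbouring sampling days. Between days -65 and -30, early in the dry period, no member element passed (0 of 10, against 0.0992% of all elements called higher and 0.0124% called lower). The smallest unadjusted p among the members was 0.0916, for PKM. Differences lay between -0.27 for PKM and 0.22 for the first ALDOA element. All member 95% intervals included 0.

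Between days -30 and -14, 7 elements rose and 2 fell, against 19.5% of all elements called higher and 14% called lower. The median difference over the 10 elements was 0.62 on the log2 scale, and over all elements tested it was 0.06. Without centring of the slides, the median over all elements was 0.48 and 96.6% of 3461 calls were higher, so changes are reported relative to the bulk of elements. Among the members the largest rises were those of ALDOA, the aldolase that splits fructose 1,6-bisphosphate into triose phosphates.

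The second ALDOA element had values from -2.78 to -2.01 on day -30, with a median of -2.45, and from -1.39 to -0.30 on day -14, with a median of -1.02. Every day -14 value was above every day -30 value, but the share of all elements separated in this way was not computed. The mean rose by 1.46 ± 0.21 (SE) on the log2 scale, or 2.74-fold, in 8 of 8 cows (adjusted p = 2.01e-06). The first ALDOA element ranged from -1.52 to -0.80 on day -30 and from -0.71 to 0.71 on day -14, again without overlap. It rose by 1.18 ± 0.26, or 2.27-fold, in 8 of 8 cows (adjusted p = 0.000528). The rise was thus present in every cow of both diets and in both elements.

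HK1, which phosphorylates glucose on entry into the cell, gave opposite answers in its 2 elements. The second HK1 element went from a median of -2.20 (range -2.48 to -1.50) to a median of -1.33 (range -1.70 to -0.999), a rise of 0.78 ± 0.14 in 7 of 8 cows (adjusted p = 2.93e-05). With liver in Cy5 alone that rise was 0.34 (adjusted p = 0.109). The first HK1 element went from a median of -0.39 (range -0.58 to -0.21) to a median of -1.09 (range -1.93 to -0.52), a fall by 0.71 ± 0.15 that was seen in 8 of 8 cows (adjusted p = 0.000332). The files do not say which part of the HK1 transcript either element covers, so HK1 has no single direction here. The fall of the first element was 0.29 without centring of the arrays (adjusted p = 0.25) and 0.24 in the slides with liver in Cy5 alone (adjusted p = 0.32).

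The later steps mostly rose. PFKP, a phosphofructokinase at the committing step of glycolysis, moved from a median of -0.96 (range -1.33 to -0.68) to a median of -0.50 (range -0.74 to -0.30). Its rise of 0.49 ± 0.10 was present in 8 of 8 cows (adjusted p = 0.000197). TPI1, which interconverts the triose phosphates, rose by 0.64 ± 0.18 in 8 of 8 cows (adjusted p = 0.00618), from a median of -1.53 to a median of -0.92. A single restricted cow reached 0.32 on day -14, while the other 7 cows lay between -1.46 and -0.62. The rise was 0.41 in the slides with liver in Cy3 alone (adjusted p = 0.144).

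PGK1, which makes the first ATP of the pathway, went the other way. It had a median of -1.54 (range -1.95 to -1.35) on day -30 and of -1.87 (range -2.46 to -1.44) on day -14, and these ranges overlapped. Its fall by 0.29 ± 0.10 in 7 of 8 cows had an adjusted p of 0.023. Its sign turned to 0.13 without centring (adjusted p = 0.616), and it missed the threshold without cow 6886, 6952 or 7161 (-0.24, -0.23 and -0.29, adjusted p from 0.0633 to 0.0982). It was also lost without samples of low agreement (-0.31, adjusted p = 0.144), with agreement as a covariate (-0.28, adjusted p = 0.0564), with scaling to the same median absolute deviation (-0.11, adjusted p = 0.491) and with liver in Cy5 alone (-0.04, adjusted p = 0.869). The correlation between both slides of a sample across the 53 samples was also low for PGK1, at 0.17, against 0.58 to 0.89 for the other 9 elements.

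PKM, the pyruvate kinase of the last step, rose by 0.65 ± 0.15 in 7 of 8 cows (adjusted p = 0.000802), and this mean hides unlike diets, described further on. Its rise was 0.32 with liver in Cy3 alone (adjusted p = 0.121). PGLS, which hydrolyses the lactone formed by glucose 6-phosphate dehydrogenase, rose in its first element by 0.60 ± 0.13 in 7 of 8 cows (adjusted p = 0.000406). With liver in Cy5 alone that rise was 0.42 (adjusted p = 0.0521). The second PGLS element differed by 0.30 ± 0.22 (adjusted p = 0.298) and did not pass.

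**Figure D2:**
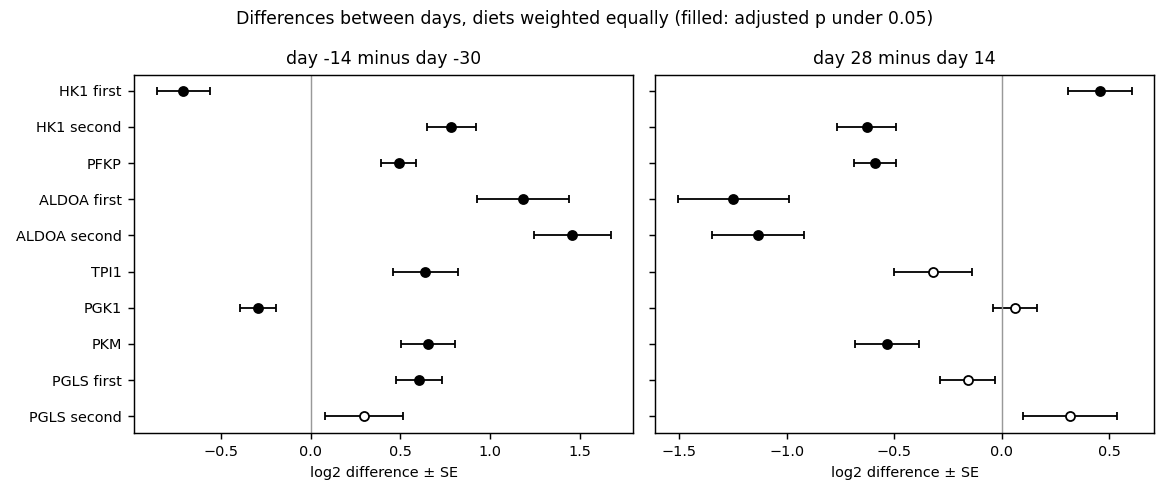
Log2 differences (x axis) between days -14 and -30 (left) and between days 28 and 14 (right) for the 10 elements, with bars of 1 SE, over both diets with equal weight. Filled points passed the adjusted threshold. Of the elements, 9 passed on the left and 6 on the right, and the elements that passed on the right lie on the opposite side of 0 from the left.

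Across calving itself, between days -14 and 1, little moved. Only PGK1 passed (1 of 10, against 0.298% called higher and 0.0992% called lower of all elements). It was higher by 0.41 ± 0.10 in 8 of 8 cows, with values from -2.03 to -1.06 and a median of -1.36 on day 1 (adjusted p = 0.0487). No setting that left out a cow kept this call, and with liver in Cy3 alone the difference was 0.35 (adjusted p = 0.708). Between days 1 and 14 only the first PGLS element passed (1 of 10, against 0.0992% higher and 0.608% lower). It fell by 0.69 ± 0.13 in 7 of 8 cows (adjusted p = 0.00442), from a median of 0.39 (range -0.39 to 0.91) to a median of -0.31 (range -1.17 to 0.02). Without cow 7045 the fall was 0.55 (adjusted p = 0.0597). It also missed the threshold without centring (-0.90, adjusted p = 0.15) and with liver in Cy3 or Cy5 alone (-0.83 and -0.54, adjusted p = 0.0662 and 0.132).

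Between days 14 and 28 most of the members returned. Of the 10 elements, 5 fell and 1 rose, against 4.91% of all elements called lower and 3.71% called higher, and the median difference was -0.43 over the members and 0.04 over all elements (-0.44 over all elements without centring, with 1.37% of 2551 calls higher). The second ALDOA element fell by 1.13 ± 0.21 in 8 of 8 cows (adjusted p = 0.000317), from a median of -1.36 (range -1.95 to -0.07) to a median of -2.16 (range -2.39 to -2.04). The first ALDOA element fell by 1.25 ± 0.26 in 7 of 8 cows (adjusted p = 0.000962).

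PFKP fell by 0.59 ± 0.10 in 8 of 8 cows (adjusted p = 6.11e-05). Its values ranged from -0.99 to 0.0025 on day 14 and from -1.37 to -1.04 on day 28. The second HK1 element fell by 0.63 ± 0.14 (adjusted p = 0.00182) and PKM fell by 0.53 ± 0.15 (adjusted p = 0.0161), each in 7 of 8 cows. The PKM mean went from -1.22 to -2.30 in ad libitum cows but only from -2.39 to -2.38 in restricted cows. The fall of the second HK1 element was 0.30 with liver in Cy5 alone (adjusted p = 0.377) and 0.44 without samples of low agreement (adjusted p = 0.175). The PKM fall missed the threshold without cow 6877, 6886, 7050, 7105 or 7161, with values from -0.49 to -0.54 (adjusted p from 0.0509 to 0.0637). The first HK1 element rose by 0.46 ± 0.15 in 5 of 8 cows (adjusted p = 0.0435), so that both HK1 elements again moved in opposite directions. That rise was -0.01 without centring (adjusted p = 0.952) and it missed the threshold without any of 7 cows (all but 6952), with values from 0.36 to 0.51. It was also lost without samples of low agreement (0.35, adjusted p = 0.343), with scaling to the same median absolute deviation (0.32, adjusted p = 0.138) and with liver in Cy5 alone (0.10, adjusted p = 0.844). TPI1 (-0.32 ± 0.18, adjusted p = 0.331), PGK1 (0.06 ± 0.10, adjusted p = 0.758) and both PGLS elements (-0.16 ± 0.13 and 0.32 ± 0.22) did not pass. Without samples of low agreement the TPI1 difference was -0.87, but cow 7161 was then the only ad libitum sample on day 14. This cow stood at -0.20 in TPI1 on that day, above the other ad libitum cows (-1.22 to -1.12). Its own day 28 sample was left out in that setting. Without centring TPI1 and the first PGLS element passed (-0.79 and -0.63, adjusted p = 0.0129 and 0.0297). With liver in Cy3 alone PGK1 and the second PGLS element passed (0.41 and 0.57, adjusted p = 0.0164 and 0.0339).

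In the first ALDOA element the spread over cows was widest on day 14 (SD 1.02, n = 8). Restricted cows 6877 and 7105 had values of 1.304 and 1.25, and restricted cows 6952 and 7045 had values of -1.12 and -1.18. The ad libitum cow 7161 stood at 0.98, and the other 3 ad libitum cows lay between -0.50 and -0.26. The same 3 high cows also had the highest day 14 values in the second ALDOA element (-0.07, -0.42 and -0.09) and in TPI1 (-0.31, -0.65 and -0.20). On day 28 the first ALDOA element was back between -1.68 and -0.996 in all 8 cows.

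No member passed between days 28 and 49 (0 of 10, against 0.0124% higher and 0% lower). Between days -30 and 28, both days of good agreement between slides, no member passed (0 of 10, against 0.261% higher and 0.0868% lower). Of these 10, 2 had an unadjusted p under 0.05. PFKP was lower by 0.20 ± 0.10 (SE) and the second PGLS element was higher by 0.44 ± 0.22, with adjusted p of 0.304 and 0.313. For the second ALDOA element the 95% interval of the difference ran from -0.20 to 0.66, so a difference as large as that between days -30 and -14 lies outside it. Neighbouring comparisons share the samples of the day between them.

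Some marker elements of liver cell types also changed over the same days. Of all elements, 19.5% were called higher and 14% lower between days -30 and -14. These shares were 3.71% and 4.91% between days 14 and 28. Between days -30 and -14, 3 of 4 hepatocyte marker elements fell: SLC10A1, the bile acid uptake carrier, by 1.39 ± 0.20, TF (transferrin) by 0.76 ± 0.16 and RBP4 (retinol-binding protein) by 0.45 ± 0.16. The mean of the list lay between 4.32 and 4.72 on day -30, between 3.53 and 4.00 on day -14 and between 4.36 and 5.14 on day 28. Of the stellate cell and fibroblast elements, 6 of 11 rose and none fell, and the list mean went from a range of -2.54 to -2.30 to a range of -2.31 to -1.03. Endothelial elements fell in 3 of 8 and rose in 1 of 8, and macrophage elements rose in 2 of 13 and fell in 4 of 13. S100A12, the only neutrophil marker tested, rose by 0.97 ± 0.20. Bile duct cell and T and NK cell markers gave 1 higher and 1 lower element each (of 4 and of 5), skeletal muscle markers 1 higher of 2, and the single B cell marker did not pass. Both skeletal muscle elements were of DES and were also counted among the stellate cell and fibroblast elements. No red blood cell marker was among the tested elements. Between days 14 and 28, when most members returned, 3 of 4 hepatocyte elements rose, 4 of 11 stellate cell and fibroblast elements fell and 5 of 8 endothelial elements rose. Over the same days 3 of 13 macrophage elements rose and 1 fell, S100A12 fell by 0.74, 1 of 4 bile duct cell elements rose and 1 of 2 skeletal muscle elements fell. The part of these shifts in the member results was not tested.

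Other genes of the same pathways, taken from lists of glycolysis and neighbouring pathways, were read beside the members. As given above, 19.5% of all elements were called higher and 14% lower between days -30 and -14. Of 11 other glycolysis elements (8 genes), 7 rose and none fell between days -30 and -14, with a list median of 0.44. They included all 3 elements of PGAM1, a phosphoglycerate mutase (0.76 ± 0.14 and 0.58 ± 0.17 in the pair with the smallest p), and 1 of 2 elements of PFKFB3, which makes the activator fructose 2,6-bisphosphate (0.35 ± 0.10). ENO1, an enolase, was also among them (0.48 ± 0.15), as were GAPDH and HK3. The remaining elements, of LDHA, PFKL, ALDOC and the other PFKFB3 element, did not pass between these days. LDHA, a lactate dehydrogenase subunit, did differ over the 7 days (F = 6.55, adjusted p = 0.000379), with a mean of -3.21 on day -30, -2.81 on day -14 and its highest day mean, -2.01, on day 1.

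Of 4 other pentose phosphate elements, TKT (transketolase) rose by 0.76 ± 0.25 and TALDO1 (transaldolase) by 0.33 ± 0.12, and RPIA and PRPS2 did not pass. Among 8 elements for hexose and lactate transport and entry, 4 rose: both elements of the glucose transporter SLC2A3 (1.77 ± 0.23 and 0.41 ± 0.13) and both of SLC2A1 (0.44 ± 0.13 and 0.40 ± 0.13). SLC2A1 and SLC2A3 are, like the HK1 and PKM forms, glucose transporters typical of tissues other than hepatocytes. Of 2 gluconeogenesis elements, PC, which makes oxaloacetate from pyruvate, rose by 0.84 ± 0.14. Of 6 glycogen elements, 1 of the 2 for PYGL, the liver glycogen phosphorylase, fell by 0.41 ± 0.14.

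Between days 14 and 28, in the other glycolysis list, 1 of 11 elements fell (ALDOC, by 0.66 ± 0.21), against 4.91% of all elements. In the transport list 3 of 8 fell (both SLC2A3 elements and 1 of 2 SLC2A1 elements, by 0.96 ± 0.23, 0.46 ± 0.13 and 0.73 ± 0.13), and none of the 4 other pentose phosphate elements passed. The PYGL element that fell at day -14 rose by 0.59 ± 0.14. Between days -14 and 1, PFKFB3 was the only other glycolysis element that passed (0.43 ± 0.10, adjusted p = 0.0412). Between days 1 and 14 TKFC, which phosphorylates the trioses of fructose breakdown, was the only one of the transport and entry elements that passed (0.89 ± 0.22, adjusted p = 0.0409).

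**Figure D3:**
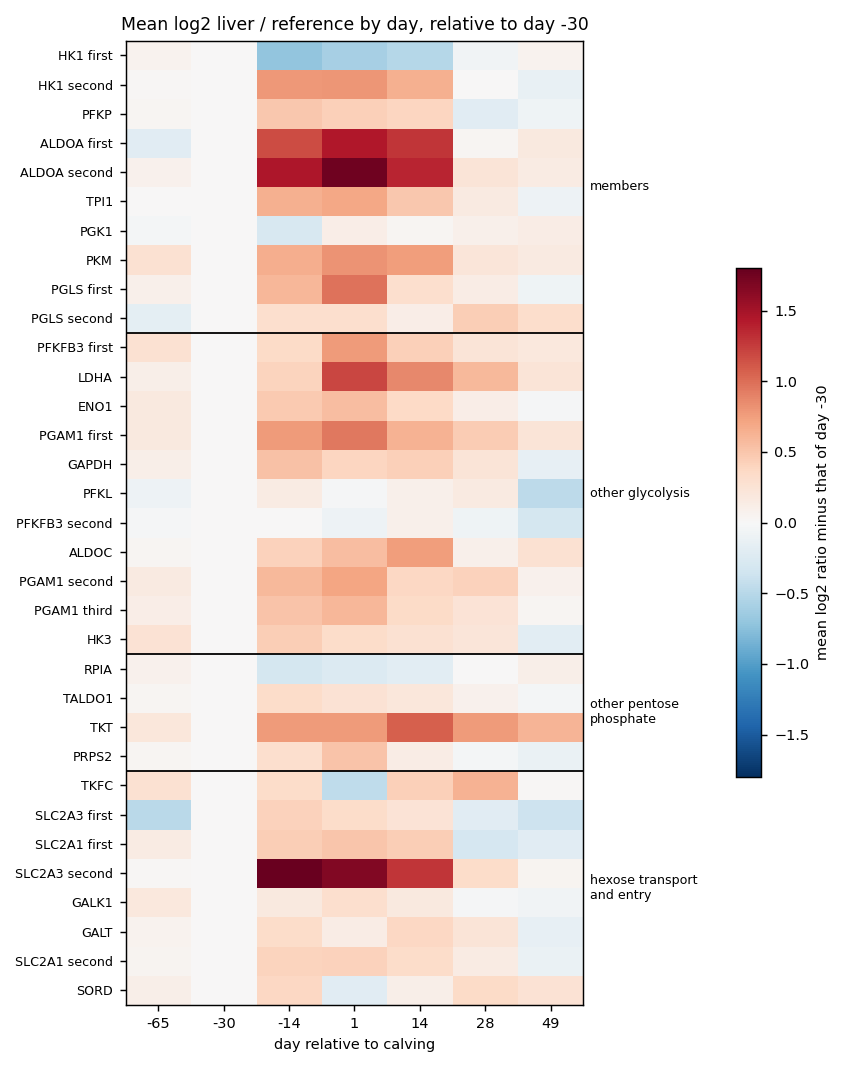
Rows are elements of the members and of 3 lists of related genes, columns are sampling days, and colour gives the mean log2 ratio minus that of day -30 (red higher, blue lower). The red block on days -14, 1 and 14 is strongest for both ALDOA elements and the second SLC2A3 element, and the first HK1 element is the bluest row of the members on those days.

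The design's second question was whether the plane of nutrition before calving changed these transcripts. Before calving, with the mean of days -30 and -14 as a single value per cow, no member passed (0 of 10, with 0% of all elements called in either direction). An unadjusted p under 0.05 was reached by 3 members, as by 1050 of 8061 elements. PKM was higher in ad libitum cows by 0.46 ± 0.15 (SE), PGK1 by 0.39 ± 0.14, and the first PGLS element was lower by 0.46 ± 0.16, with adjusted p of 0.303, 0.316 and 0.31.

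After calving, with the mean of days 1, 14 and 28, 3 members were higher in the cows that had been fed ad libitum, and none was lower, against 9.8% of all elements called higher and 0.67% called lower. In PKM the ad libitum cows had values of -1.70, -1.73, -1.29 and -1.60, and the restricted cows had values of -2.30, -2.55, -2.43 and -2.09. The groups did not overlap. The share of all elements without overlap in such means was not computed, and shares for single days are given further on. The means were -1.58 ± 0.20 (SD, n = 4) and -2.34 ± 0.20 (SD, n = 4), a difference of 0.76 ± 0.14 (SE), or 1.70-fold (adjusted p = 0.00317).

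In the first HK1 element the ad libitum cows had -0.63, -0.51, -0.33 and -0.43, and the restricted cows had -1.36, -0.90, -1.20 and -1.10, again with no overlap. The difference was 0.66 ± 0.12 (adjusted p = 0.0038). The second HK1 element differed by 0.25 ± 0.11 in the same direction and did not pass (adjusted p = 0.222). In PFKP the ad libitum cows had -0.71, -0.63, -0.46 and -0.58, and the restricted cows had -0.93, -1.05, -1.04 and -0.94. These groups did not overlap either, and they differed by 0.39 ± 0.10, or 1.31-fold (adjusted p = 0.025).

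Over all elements, ratios spread less in ad libitum than in restricted samples on days -14, 1 and 14. Their mean SD was 0.904, 0.854 and 0.905 in ad libitum samples, against 1.1, 0.992 and 1.05 in restricted samples. The means of the 3 called elements lay below 0 in both diets. The part of this spread in the diet results was not tested. All 3 diet calls were lost under either of the following settings. When samples were scaled to the same median absolute deviation, the differences were 0.34 for PKM, 0.46 for the first HK1 element and 0.25 for PFKP (adjusted p = 0.279, 0.0889 and 0.197), while 78.5% of 898 calls over all elements were higher. Without the samples whose slides correlated under 0.6, which leaves no ad libitum sample on day 1 and 1 on day 14, they were 0.29, 0.22 and 0.30 (adjusted p = 0.998 for each). The PFKP call was also lost without any of the cows 6952, 7045, 7050, 7105, 7161 or 7187, with differences from 0.34 to 0.41. It was lost too without centring (0.35, adjusted p = 0.614) and with liver in Cy3 or Cy5 alone (0.35 and 0.43, adjusted p = 0.181 and 0.134). The call of the first HK1 element was lost without centring (0.62, adjusted p = 0.0838) and with liver in Cy3 alone (0.61, adjusted p = 0.0527).

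For the other members no difference between diets after calving was shown. The 95% interval of ad libitum minus restricted was -0.46 to 0.21 for the second ALDOA element, -0.63 to 0.40 for the first, -0.41 to 0.16 for TPI1, and -0.01 to 0.46 for PGK1. For PGLS it was -0.55 to 0.03 in the first element and -0.69 to 0.17 in the second. For the change across calving, the mean after minus the mean before, no member passed between diets (0 of 10, with 0% of all elements called in either direction). PFKP alone had an unadjusted p under 0.05, with a difference of 0.44 ± 0.15 (adjusted p = 0.504), while 714 elements of 8049 did so in all.

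**Figure D4:**
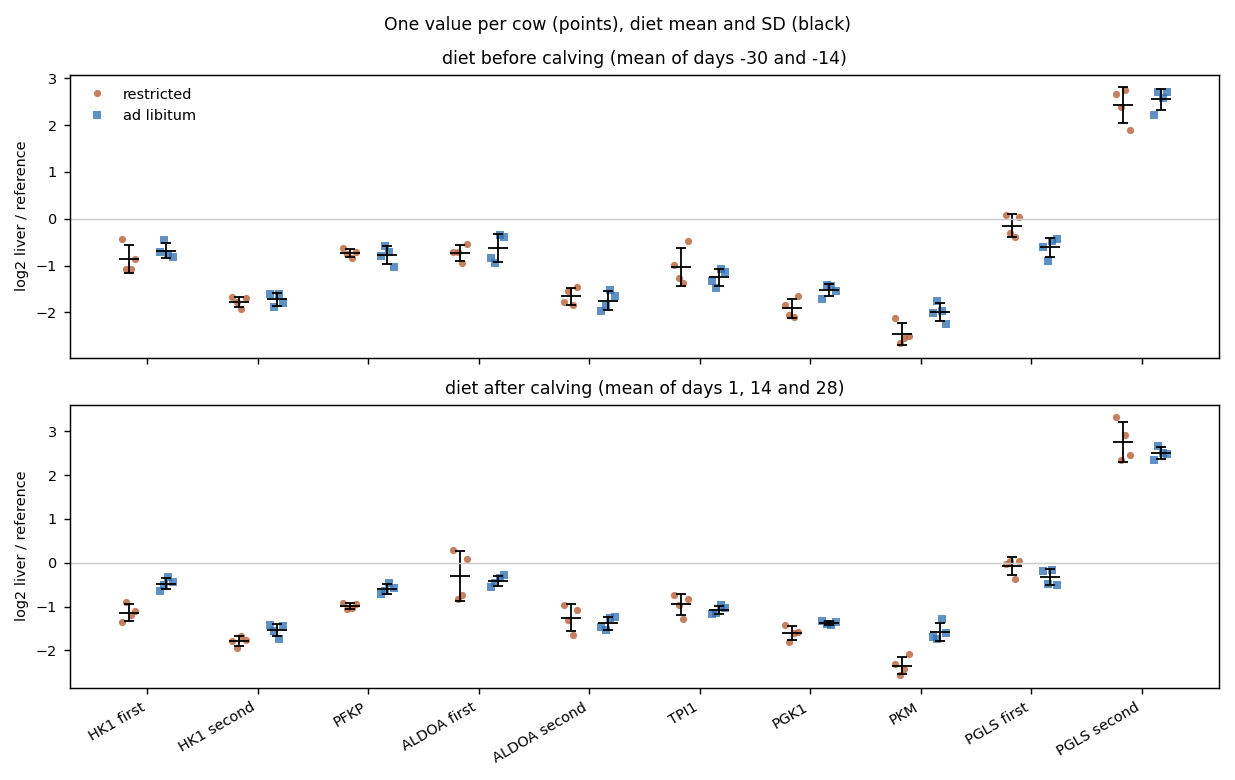
Log2 ratio of liver over reference (y axis) for each element (x axis) with 1 point per cow, as the mean of days -30 and -14 (top) or of days 1, 14 and 28 (bottom). Black bars give the diet mean and SD. In the lower panel the 4 ad libitum cows lie above the 4 restricted cows in the first HK1 element, PFKP and PKM.

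The diets' courses over the 7 days differed in 3 of 10 elements, against 0.806% of all elements: PKM (F = 7.02, adjusted p = 0.026), the first PGLS element (F = 6.98, adjusted p = 0.026) and the first HK1 element (F = 5.28, adjusted p = 0.0483). In PKM the ad libitum cows had -1.27, -1.16, -1.52 and -1.70 on day -14, and the restricted cows had -1.76, -3.03, -2.41 and -2.34. On day 1 the ad libitum values were -1.38, -1.66, -0.89 and -0.98 against -2.10, -2.91, -2.17 and -1.86, and on day 14 they were -1.33, -1.17, -0.92 and -1.44 against -2.27, -2.10, -3.03 and -2.15. PKM thus did not overlap between diets on any of these 3 days, while on days -30 and 28 the diets overlapped, with means of -2.58 and -2.53 and of -2.30 and -2.38 (ad libitum first).

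The share of all elements whose diet groups did not overlap gives the scale for such statements. With ad libitum higher it was 2.1% on day -30, 1.98% on day -14, 9.77% on day 1, 10.2% on day 14 and 1.22% on day 28, and with ad libitum lower it was 1.97%, 5.43%, 3.44%, 2.77% and 1.11%. Of the members, PKM was higher without overlap on day -14, and the first HK1 element, PFKP and PKM were so on day 1. On day 14 these were the second HK1 element, PFKP and PKM, and on days -30 and 28 there were none.

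The first PGLS element showed the opposite order of diets. On day 1 the restricted cows had 0.73, 0.81, 0.91 and 0.72, and the ad libitum cows had 0.07, -0.39, -0.07 and -0.34. On day -14 the restricted cows had 0.87, 0.13, -0.08 and 0.42 and the ad libitum cows had -0.60, -0.91, -0.30 and -0.12. Restricted values were above ad libitum values without overlap on both days, and on day 14 the diets overlapped, with means of -0.47 and -0.29.

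The first HK1 element dipped chiefly in restricted cows. Its restricted mean was -0.35 ± 0.13 (SD, n = 4) on day -30, -1.36 ± 0.60 on day -14, -1.52 ± 0.30 on day 1 and -1.42 ± 0.64 on day 14, and returned to -0.47 ± 0.08 on day 28. The ad libitum mean was -0.48 ± 0.11 on day -30, -0.89 ± 0.27 on day -14, -0.51 ± 0.23 on day 1 and -0.44 ± 0.12 on day 14. Restricted cow 6877 stood at -0.55 on day -14 and restricted cow 6952 at -0.49 on day 14. The diets thus overlapped on both of these days. Both diets fell at day -14, and by day 1 the ad libitum mean was near its day -30 value.

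The diet-by-day calls had adjusted p values of 0.457 for all 3 elements without centring, of 0.0796 to 0.508 with scaling to the same median absolute deviation and of 0.128 to 0.166 with liver in Cy5 alone. They missed the threshold in 6 of 8 settings that left out a cow (without 6886, 7045, 7050, 7105, 7161 or 7187), where adjusted p for PKM ran from 0.0774 to 0.275. Some marker elements also differed between diets after calving, against 9.8% of all elements called higher and 0.67% called lower in ad libitum cows. Of 4 bile duct cell elements, 1 for SPP1 (0.87 ± 0.10) and EPCAM (0.71 ± 0.10) were higher in ad libitum cows, and the list mean on day 1 lay between -2.00 and -1.40 in restricted cows and between -1.24 and -1.19 in ad libitum cows. Of 13 macrophage elements, CD163 was higher (0.72 ± 0.11) and 1 of 2 elements each of CD14 and C1QC was lower in ad libitum cows (-0.63 ± 0.17 and -0.87 ± 0.24). Of 8 endothelial elements, TEK and 1 of 2 for KDR were lower (-0.66 ± 0.15 and -0.53 ± 0.14), and the other KDR element was at 0.40 and did not pass (adjusted p = 0.115). Of 5 T and NK cell elements, GNLY was higher by 0.52 and CD3E was lower (-0.55). No hepatocyte, stellate cell and fibroblast, neutrophil, skeletal muscle or B cell marker passed. The part of these differences in the member results was not tested.

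Among related genes, the diet comparison after calving called 1 element, against 9.8% of all elements called higher and 0.67% called lower. RPIA, the ribose 5-phosphate isomerase of the pentose phosphate pathway, was higher in ad libitum cows by 0.65 ± 0.11 (adjusted p = 0.00307). None of the 11 other glycolysis, 8 transport and entry, 6 glycogen and 2 gluconeogenesis elements passed. No element of these 5 lists passed the diet-by-day test.

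Where a gene had 2 elements, their agreement across the 53 samples differed by gene. Pearson's r was 0.93 for ALDOA, 0.18 for PGLS and -0.48 for HK1, and within the diet-by-day groups, after removing group means, it was 0.85, 0.02 and -0.31. The samples share cows, slides and the same reference, so these values describe the elements and carry no test. Neighbouring spots of the same element agreed closely in all 10 (r from 0.989 to 0.999 over the 106 slides). The files do not give the sequence or the position of the elements within their transcripts.

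**Figure D5:**
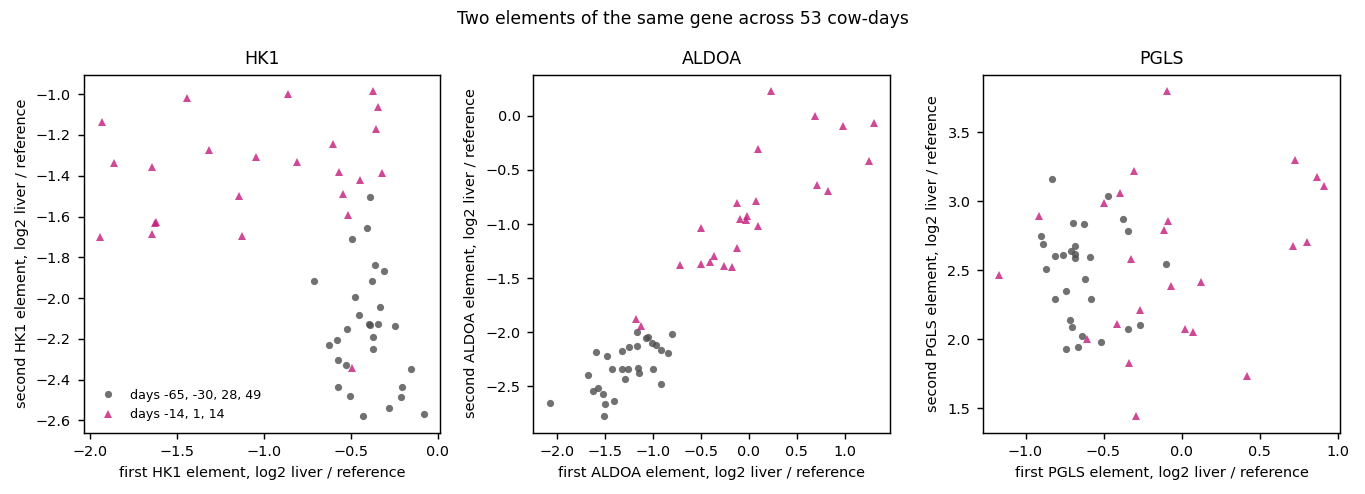
Each point is a liver sample, with the log2 ratio of the first element of a gene on the x axis and of the second element on the y axis, for HK1, ALDOA and PGLS. Triangles mark days -14, 1 and 14. The ALDOA points follow a rising line (r = 0.93), the HK1 triangles spread to the upper left (r = -0.48), and the PGLS points show little relation (r = 0.18).

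Between genes, the second ALDOA element and TPI1 moved together across samples (r = 0.80, and 0.64 within groups), and so did the second HK1 element and PFKP (0.79, and 0.45 within groups). PKM went with the first HK1 element within groups (0.62) but hardly over all samples (0.20). As a description, the elements with the most similar course over the 53 samples, among 5262 with a single symbol and complete values, were found for each member. For the first ALDOA element these were the second ALDOA element (0.93), CLK2 (0.91) and FBLN1 (0.86), and for the second they were the first ALDOA element, C21H15orf39 and CENPA (0.93, 0.92 and 0.92). PKM was most like PARP1 (0.91), LGALS3 (0.91) and ANXA5 (0.88).

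TPI1 was most like 2 elements of RPS3, a ribosomal protein (0.97 and 0.97), and SNX1 (0.95). The first PGLS element was most like 3 elements of DDOST, a subunit of the oligosaccharyltransferase (0.97, 0.96 and 0.95). The first HK1 element was most like BRF2, GPALPP1 and CENPS (0.95, 0.95 and 0.94), and the second was most like CD44, MFGE8 and ANKRD33B (0.88, 0.88 and 0.88). PFKP followed LOC619094, PDLIM7 and H2AJ (0.82, 0.81 and 0.80). The second PGLS element followed PDZK1, DERA and UQCRC2 (0.80, 0.78 and 0.75), and PGK1 followed RPRD1B, TOR1B and PTPN2 (0.73, 0.68 and 0.65). The median r over all elements searched lay between -0.19 and 0.11 for the 10 elements.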

How the data were processed

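Liver from 8 cows on 7 days gave 53 samples and 106 slides. The authors deposited log2 ratios of Cy5 over Cy3 for 16416 spots per slide. Per the labels, slides were scanned on a Scanarray instrument and read with GenePix. Background correction and normalization are not given in the sources used here, and slide medians ran from -1.68 to 1.79. The log base was read from the values: an exact 1 occurred 6.62 times as often as neighbouring values, and the log2 of 3 occurred 6.78 times as often. The liver dye was taken from the titles, although another label of 4 slides gives the opposite dye, and with the titles both slides of every sample correlated above 0 (lowest 0.0839). The series' design text counts fewer elements than the 8208 in the files, and the reason is not given in the sources used here.

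Both spots of an element were averaged (their accessions matched in 5693 of 5693 annotated pairs, and 1.23% of spot values were missing). Ratios were turned to liver over reference, each slide was centred on its median, and both dye orientations of a sample were averaged and counted as 1 replicate. Elements needed values from 2 or more cows in every one of 14 groups. Days were compared with limma 3.58.1 (statmod 1.5.0, R 4.3.3) as contrasts of 14 diet-by-day means, and the repeated samples of a cow entered as a random block (estimated correlation 0.0176), since the labels name the cow. Diets were compared in limma with 1 value per cow. All p-values are two-sided, adjusted by Benjamini-Hochberg over all elements, with a threshold of 0.05. In the diet comparisons, 8059 elements could be tested after calving and 8049 for the change across calving.

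All member elements are named. In the gene lists, up to 4 elements per comparison with the smallest p among those that passed are named with values. The most alike elements are the 3 with the highest correlation. Gene symbols come from the platform annotation. The members and lists were chosen with earlier results of these data known. The fits were tested on simulated data. Alternatives were other centring and scaling, each dye orientation alone, other filters, no or fixed cow block, agreement of orientations as a covariate, samples of low agreement left out, and each cow left out.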

Additional observations from a re-analysis of the deposited data

Results flagged for a closer look

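The courses over the 7 days differed between diets by the F test in PKM (F = 7.02), the first PGLS element (F = 6.98) and the first HK1 element (F = 5.28).

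Between days 28 and 49 the second ALDOA element rose in both ad libitum cows sampled on both days (mean 0.20) and fell in all 4 restricted cows (mean -0.23). This difference between diets was not tested.

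In 11 of 120 groups of 4 cows, 1 cow stood apart from the other 3 by Dixon's criterion, which chance gives in about 1 of 20. Cow 7161 (ad libitum) did so on day 14 in the first ALDOA element (0.98, others -0.50 to -0.26), the second ALDOA element (-0.09, others -1.39 to -1.35) and TPI1 (-0.20, others -1.22 to -1.12), on day -30 in the second HK1 element (-1.50, others -2.30 to -2.19) and on day 28 in PKM (-2.07, others -2.40 to -2.36). Among ad libitum cows, 6886 did so on day 28 in the second ALDOA element (-2.05) and 7187 on day 14 in the second PGLS element (2.99). Among restricted cows these were 6952 on day 14 in the second HK1 element (-2.34), 7045 on day -30 in PFKP (-1.13), and 7105 on day -30 in the first PGLS element (-0.34) and on day 49 in the second PGLS element (2.75).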

How the results depend on the processing

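Of 32 called member results, none was lost under other filters on missing values, 10 were lost with scaling to the same median absolute deviation, 10 with liver in Cy3 alone, 13 with liver in Cy5 alone, and 9 without centring. There 2 also reversed: PGK1 between days -30 and -14 (0.13) and the first HK1 element between days 14 and 28 (-0.0147). Both ALDOA elements and PFKP kept their day -30 to -14 and day 14 to 28 calls under every setting run. Without samples of low agreement, however, days -14 and 14 each kept only 1 ad libitum and 2 restricted samples. On day 14 the ad libitum sample left was that of cow 7161, which stood apart in both ALDOA elements. The causes were not tested.

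Between days -30 and -14, 5 member elements were called with liver in Cy5 alone (9 in the report). Between days -14 and 1 the count of 1 became 0 without centring, with scaling, in either dye orientation alone, with no replicate block and with the agreement of slides as a covariate, and it ran from 0 to 0 without each cow. Between days 1 and 14 the count of 1 became 0 without centring and in either orientation alone, and ran from 0 to 1 without each cow. For diet by day the count of 3 became 0 without centring, with scaling and with liver in Cy5 alone, 1 with liver in Cy3 alone, and ran from 0 to 3 without each cow. For the diets after calving the count of 3 became 1 without centring, 0 with scaling, 1 with liver in Cy3 alone and 0 without samples of low agreement.

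With no replicate block, 2 of 29 called day results were lost (PGK1 between days -14 and 1, 0.41, adjusted p = 0.0549, and the first HK1 element by diet and day, F = 5.24, adjusted p = 0.0549). With cow as a fixed replicate block, 2 were lost (the first HK1 element between days 14 and 28, 0.46, adjusted p = 0.0573, and by diet and day, F = 4.84, adjusted p = 0.0742). The block changed no other member call. Without samples of low agreement no ad libitum sample was left on day 1, so comparisons with day 1, the F test over days and diet by day could not be fitted.

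Counts over all elements moved by over 1.5 times as follows. Between days -30 and -14 they were 2703 in the report and 1798 to 2995 without each cow. Between days 14 and 28 they were 695 in the report, 2551 without centring, 1198 with scaling, 2349 in Cy3 and 208 in Cy5 alone, and 409 to 1091 without each cow. Between days -14 and 1 they were 32, then 0 without centring and in Cy3 alone and 3 to 96 without each cow. Between days 1 and 14 they were 57, then 0 without centring, 3 in Cy3 alone and 7 to 143 without each cow. For diet by day they were 65, then 0 without centring and with scaling, 4 in Cy3 and 9 in Cy5 alone, 20 with no replicate block, 36 with the covariate and 0 to 1036 without each cow. For diets after calving they were 844, then 330 without centring, 440 in Cy3 alone and 0 without samples of low agreement. Over days they were 3497, and 1980 with the covariate. Between days -30 and 28 they were 28, then 62 without centring (0% higher), 258 with scaling, 10 in Cy5 alone, 44 with complete elements, 46 with a fixed block, 60 with the covariate and 1 to 59 without each cow. Between days -65 and -30 they were 9, with 1 to 16 in the alternatives, and between days 28 and 49 they were 1, with 0 to 26.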
